A study of Mus musculus with 8 samples.

Results

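Cathepsins, lysozyme and cystatins were examined in direct RNA libraries of the mouse brain, as 10 genes of the count table (Ctsa, Ctsb, Ctsd, Ctsl, Ctss, Ctsz, Lgmn, Lyz2, Cst3 and Cstb) out of 22430. They were taken by the Ensembl identifier of each symbol, with no measured value in the rule, and all 10 were abundant enough to be tested. All libraries are from males of the inbred mouse strain C57Bl/6JRj, 4 of them young adults at 6 months (6m) and 4 of them aged at 24 months (24m), and neither a genetic change nor a treatment is named for either age. Each library holds the RNA of a brain hemisphere of 1 mouse, homogenized as a whole and read on a MinION, where RNA molecules pass the pore themselves. The genes of many cell types are therefore mixed in every value, and in such bulk RNA more cells of a type and more RNA per cell cannot be told apart.

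Cathepsins are proteases of the lysosome, the acidic compartment in which cells break down what they take up or discard. They are made as inactive proenzymes, sorted to the lysosome mostly through mannose 6-phosphate receptors, and activated there by cleavage. Ctsb, Ctsl, Ctss and Ctsz encode cysteine proteases, Ctsd an aspartic protease, Ctsa a serine carboxypeptidase that also protects other lysosomal enzymes, and Lgmn the asparaginyl endopeptidase legumain, which processes cathepsins. Cystatins are inhibitors of cysteine cathepsins and do not act on cathepsin D: Cst3 encodes the secreted cystatin C and Cstb the cystatin B that stays inside the cell. Lyz2 encodes a lysozyme of macrophages that cuts bacterial cell walls and is no protease. In the brain, microglia, the resident macrophages, carry high levels of many of these mRNAs, while neurons and astrocytes hold several of them as well.

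Lyz2 showed the strongest difference of the 10 genes between the ages and Ctss the next, and both were higher at 24m. Ctsd and Ctsb were also higher at 24m, by a smaller amount. Ctsl, Ctsz, Lgmn and Ctsa, and both cystatins, did not pass the test. A gene was called changed when its p from edgeR's quasi-likelihood test, adjusted by Benjamini-Hochberg over the 9375 tested genes, was at most 0.05 and its log2 fold change (log2FC, 24m over 6m) was at least 0.58 in size. By this rule 2 of the 10 genes were changed, both higher, where 10.3% of all tested genes were changed and higher, 4.17% were changed and lower, and 14.5% were changed in either direction. By the adjusted p alone, 4 of the 10 passed, all of them higher, against 12.3% of all tested genes higher and 9.42% lower. The 10 genes had a median log2FC of 0.21, with 8 positive values, while the median of all tested genes was -0.003.

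Totals of counts on genes ran from 573152 to 1255424 per library, with means of 768576 at 6m and 890592 at 24m, a difference within the spread of the libraries (two-sided p = 0.54 by exact permutation, where the smallest possible p is 0.029). The 10 genes held between 0.656% and 0.783% of these counts. The aged replicate 1 stood apart from the other 7 libraries on the second axis of a principal component analysis, at 38.4 against -17.5 to 7.48, and values without it stand beside several of the results. Among marker lists of other cell types, 3 of 7 tested astrocytic markers were higher at 24m, with Gfap first (log2FC 1.94), and 1 was lower. Of the oligodendrocyte markers 2 of 8 and of the neuronal markers 3 of 8 were higher, and 5 of 5 red blood cell genes were lower. Of all tested genes 10.3% were changed and higher and 4.17% changed and lower. By the adjusted p alone, 6 of 8 oligodendrocyte and 6 of 8 neuronal markers were higher, and 1 neuronal marker was lower. The shares of all tested genes by that rule were 12.3% higher and 9.42% lower. None of the 2 tested endothelial and 3 tested choroid plexus markers was changed.

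The annotated position of a gene bears on what its count can hold, since a read on bases that genes share may be counted on either or both. Ctss (ENSMUSG00000038642, GRCm39 chromosome 3, 95433963 to 95463717, plus strand, 8 exons), Lgmn (ENSMUSG00000021190, chromosome 12, 102359122 to 102414682, minus strand), Cst3 (ENSMUSG00000027447, chromosome 2, 148713635 to 148717887, minus strand) and Cstb (ENSMUSG00000005054, chromosome 10, 78261499 to 78263991, plus strand) share no exon bases with another annotated gene. Ctsd (ENSMUSG00000007891, chromosome 7, 141929646 to 141941775, minus strand, 9 exons) shares 808 exon bases on its own strand with Gm49369, an annotated readthrough gene at 141924833 to 141936404. The others that share exon bases do so with genes on the opposite strand, and Ctsl does so on its own strand as well. It is not stated whether the counting used strand. Ctsb (ENSMUSG00000021939, chromosome 14, 63358384 to 63383372, plus strand, 10 exons) shares 1184 of them with Fdft1. Ctsa (ENSMUSG00000017760, chromosome 2, 164674778 to 164682961, plus strand) shares 649 with Neurl2 and 1252 with Pltp, and Ctsz (ENSMUSG00000016256, chromosome 2, 174267304 to 174280832, minus strand) shares 1084 with Nelfcd. Ctsl (ENSMUSG00000021477, chromosome 13, 64507151 to 64518704, minus strand) shares 1742 with the long non-coding Gm47123 and, on its own strand, 395 with the pseudogene Gm49230. Lyz2 (ENSMUSG00000069516, chromosome 10, 117111557 to 117118346, minus strand, 4 exons) shares 534 with the long non-coding Gm67237.

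Lyz2 has a close paralog, Lyz1, on the same chromosome, so it matters whether a read can tell them apart. Their coding sequences have 444 bases each and differ at 22 of them (95% identity). The 30 bases that end at base 132, counted from the A of the start codon on the coding strand, hold 7 of these differences, printed in capitals from the GENCODE transcripts.
Lyz2: atggCtggctacTAtggAgtcaGCctggcC
Lyz1: atggAtggctacCGtggTgtcaAGctggcT
Lyz1 held 1 count in the 8 libraries together, so hardly any read was counted on the paralog. Over the whole transcript, the aligned part covered 42.5% of Lyz2, and none of the 10 genes had another gene that matched at least 95% of bases over at least 50% of its transcript.

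CPM are counts put on the same library size, after the total of each library was multiplied by its TMM factor from edgeR. These factors were 0.9582 to 0.9724 at 6m and 0.9934 to 1.064 at 24m. Lyz2 had 9.85, 12.7, 16.2 and 13.8 CPM in the young adult libraries and 57.9, 43.7, 38.4 and 42.2 CPM in the aged libraries. Every aged library lay above every young adult library. The means were 13.1 ± 2.63 and 45.5 ± 8.55 CPM (SD, n = 4 each), from 7 to 13 counts per young adult library and 30 to 55 per aged library. Lyz2 rose 3.39-fold, a log2FC of 1.76 (SE 0.241, 95% interval 1.27 to 2.25, edgeR adjusted p = 1.06e-05). Of the 9375 tested genes, 87 had a higher log2FC. The SD among young adult libraries was 0.617 of what counting alone would give and 1.18 of it among aged libraries.

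Ctss, whose protease also works outside the lysosome at neutral pH and trims the invariant chain of MHC class II, had 70.2, 59.7, 64.7 and 71.6 CPM at 6m and 99.1, 88.4, 104.9 and 151.1 CPM at 24m. The ages did not overlap, and the aged replicate 4 was the highest by far. Means were 66.5 ± 5.45 and 110.9 ± 27.7 CPM (SD, n = 4 each). Ctss rose 1.68-fold, a log2FC of 0.75 (SE 0.166, 95% interval 0.41 to 1.09, edgeR adjusted p = 0.00228). Without the aged replicate 4 the log2FC was 0.55 (edgeR adjusted p = 0.0109), which is under the fold change minimum, so the call of Ctss as changed rests on that library while the adjusted p does not.

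**Figure D1:**
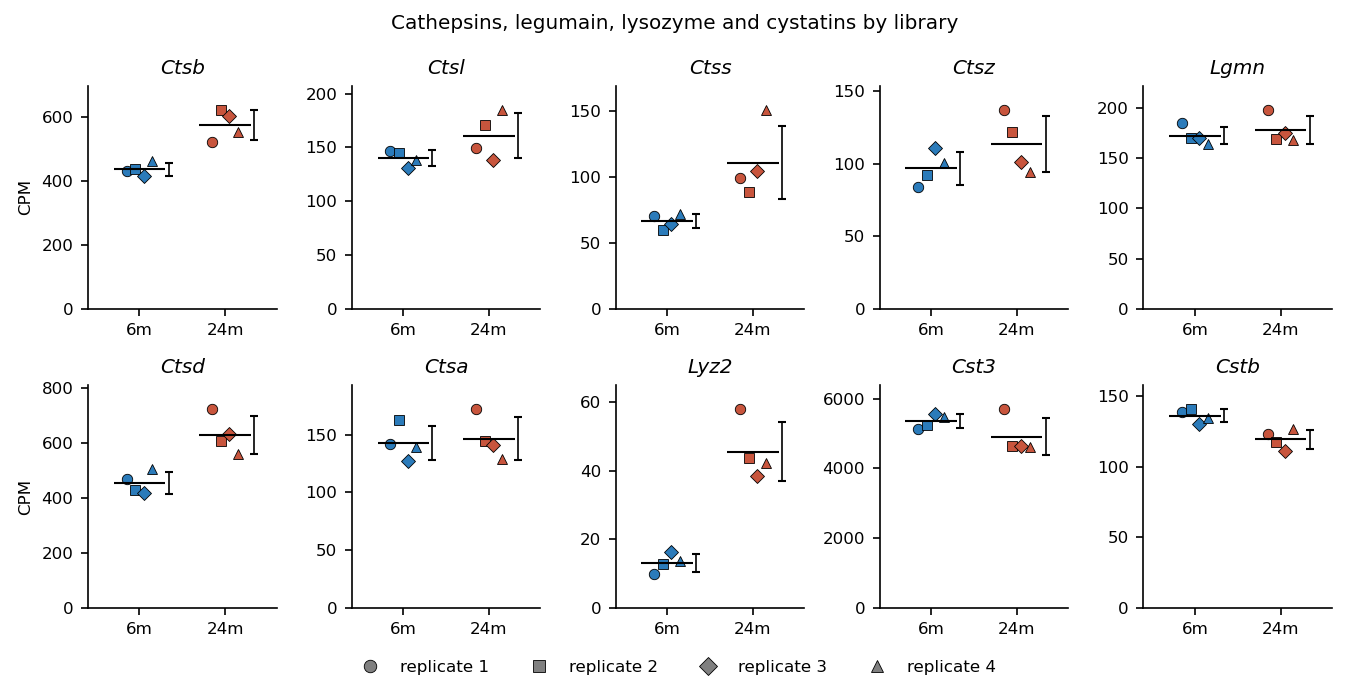
Expression of the 10 genes in each library, in CPM (each axis from 0). Points are libraries, blue at 6m and red at 24m, with the marker showing the replicate number, horizontal lines are means and bars are SD (n = 4). Aged libraries of Lyz2 (38.4 to 57.9) and Ctss (88.4 to 151.1) lie above all young adult libraries, while the ages overlap in Ctsl, Ctsz, Lgmn, Ctsa and Cst3.

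Ctsd, the main aspartic protease of the lysosome, had 469.0, 430.3, 416.9 and 506.1 CPM at 6m and 724.0, 608.2, 633.4 and 559.2 CPM at 24m. Here too the ages did not overlap, and the aged replicate 1 was the highest. Means were 455.6 ± 40.2 and 631.2 ± 69.1 CPM (SD, n = 4 each), a 1.38-fold difference (log2FC 0.46, SE 0.0965, 95% interval 0.27 to 0.66, edgeR adjusted p = 0.00135). The difference passed the adjusted p and not the fold change minimum. It was 0.40 without the aged replicate 1, the lowest value over the alternatives. Gm49369, the readthrough gene that shares exons with it, had 250 to 408 counts per young adult library and 500 to 750 per aged library, and its log2FC was 0.51 (edgeR adjusted p = 0.000643). For every 100 CPM of Gm49369 there were between 93.4 and 100.9 CPM of Ctsd in all 8 libraries. The values of Ctsd and Gm49369 thus cannot be told apart, and the difference belongs to the reads on both.

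Ctsb had 429.6, 435.8, 415.7 and 462.1 CPM at 6m and 521.3, 621.7, 602.7 and 552.3 CPM at 24m, without overlap. Its means of 435.8 ± 19.4 and 574.5 ± 46.0 CPM (SD, n = 4 each) differed 1.32-fold (log2FC 0.40, SE 0.0899, 95% interval 0.22 to 0.58, edgeR adjusted p = 0.00255), which again passed the adjusted p and not the fold change minimum. Fdft1, which overlaps it on the opposite strand, had a log2FC of -0.14 (edgeR adjusted p = 0.455).

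The remaining cysteine cathepsins did not pass the test. Ctsl, an endopeptidase, had 130.7 to 146.5 CPM at 6m and 138.2 to 184.9 CPM at 24m (log2FC 0.21, 95% interval -0.04 to 0.47, edgeR adjusted p = 0.229). Ctsz, a carboxypeptidase, had 83.7 to 110.8 CPM at 6m and 94.3 to 137.2 CPM at 24m (log2FC 0.21, 95% interval -0.09 to 0.52, edgeR adjusted p = 0.332), and without the aged replicate 1, its highest library, the log2FC was 0.13. In both genes the ages overlapped, and the intervals allow a difference as large as that of Ctsb as well as none.

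Lgmn and Ctsa, which do not belong to the cathepsin family of cysteine proteases, lay nearest to 0. Lgmn had 184.6, 170.0, 170.5 and 164.5 CPM at 6m and 198.2, 169.5, 175.3 and 168.0 CPM at 24m (log2FC 0.04, 95% interval -0.19 to 0.27, edgeR adjusted p = 0.86). Ctsa had 127.0 to 162.7 CPM at 6m and 128.9 to 172.2 CPM at 24m (log2FC 0.03, 95% interval -0.23 to 0.30, edgeR adjusted p = 0.882). Both intervals end below the fold change minimum on either side, so a change of that size lies outside them. Pltp on the opposite strand of Ctsa had a log2FC of -0.39 (edgeR adjusted p = 0.0526), and Neurl2, with 6 to 9 counts at 6m and 14 to 22 at 24m, one of 0.83 (edgeR adjusted p = 0.0462).

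Cst3 was by far the most counted of the 10 genes, with 5137.7, 5232.9, 5559.7 and 5482.5 CPM at 6m and 5697.6, 4641.1, 4654.2 and 4623.7 CPM at 24m. The aged replicate 1 was above every young adult library, and the other 3 aged libraries were below all of them. The means of 5353.2 ± 200.2 and 4904.1 ± 529.1 CPM (SD, n = 4 each) gave a log2FC of -0.13 (SE 0.0914, 95% interval -0.31 to 0.06, edgeR adjusted p = 0.347). Without the aged replicate 1 the log2FC was -0.20 and passed the adjusted p (0.00558 from edgeR), still far under the fold change minimum. With library sizes alone it was -0.03, and with DESeq2 on quantile-normalized counts it turned to 0.06, neither past the adjusted p. The SD among aged libraries was 7.04 times that of counting alone, so the depth did not limit this value.

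Cstb had 139.1, 141.0, 130.7 and 134.4 CPM at 6m and 123.5, 117.5, 111.3 and 126.6 CPM at 24m. Every aged library lay below every young adult library, a pattern that 9.96% of the tested genes showed in this direction, and 11.1% showed the reverse. Still, Cstb did not pass the test, with a log2FC of -0.18 (SE 0.122, 95% interval -0.43 to 0.07, edgeR adjusted p = 0.306). With library sizes alone, without the TMM factors, the log2FC was -0.08 (edgeR adjusted p = 0.696). With 78 to 165 counts per library, the SD between libraries was 0.34 and 0.574 of that of counting alone at 6m and 24m.

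**Figure D2:**
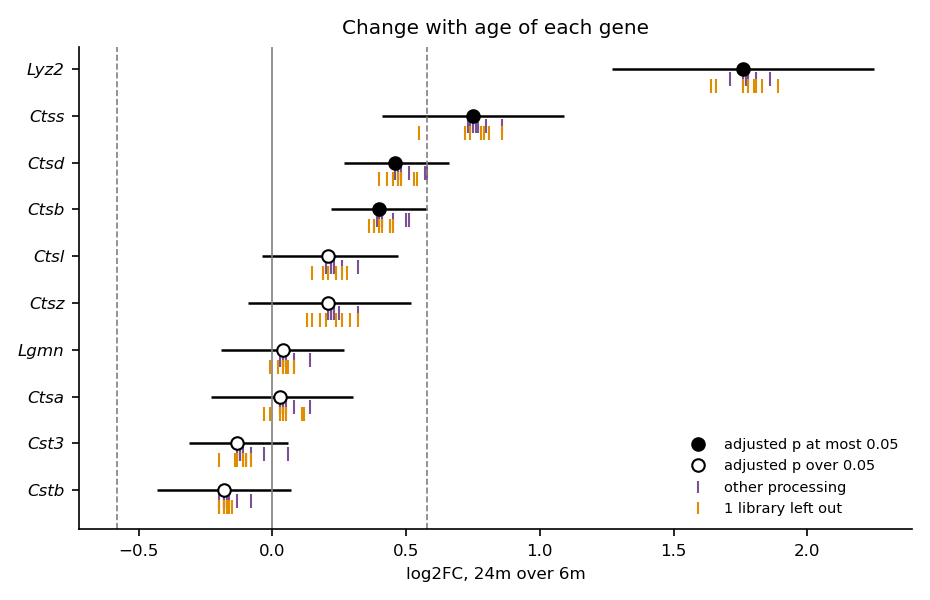
Log2FC of the 10 genes, 24m over 6m, with 95% intervals from edgeR. Filled circles passed the adjusted p, dashed lines mark the fold change minimum of 0.58 in size, and ticks below each gene are the same log2FC with other processing (purple) or with 1 library left out (orange). Only Lyz2 and Ctss lie past the upper dashed line, and 1 orange tick of Ctss, at 0.55, falls short of it.

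When the inhibitors and their target proteases are set side by side, the 4 cysteine cathepsins Ctsb, Ctsl, Ctss and Ctsz together had 721.9 to 772.3 CPM at 6m and 906.9 to 1002.2 CPM at 24m. The sum of Cst3 and Cstb had 5276.7 to 5690.4 CPM at 6m and 4750.3 to 5821.1 CPM at 24m. The cathepsin sum did not overlap between the ages and the cystatin sum did. For every 100 CPM of the cystatins there were 12.7 to 13.8 CPM of the cysteine cathepsins at 6m and 15.6 to 21.1 CPM at 24m, of which 15.6 belongs to the aged replicate 1. Cst3 took 75.4% to 77.8% of the CPM of all 10 genes at 6m and 69.0% to 72.3% at 24m. These sums and ratios are mRNA counts described without a test, and mRNA is not enzyme activity.

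Levels of different genes were compared as CPM per kilobase of the canonical transcript, although a direct RNA read comes from 1 molecule whatever its length. On this scale Cst3 led at both ages, with 5787.2 ± 216.5 at 6m and 5301.8 ± 572.0 at 24m (SD, n = 4 each), and Ctsd followed with 214.2 ± 18.9 and 296.8 ± 32.5. At 6m Cstb (119.4 ± 4.07) came before Ctsb (91.2 ± 4.07) without overlap of the libraries, while at 24m Ctsb (120.3 ± 9.63) and Cstb (104.8 ± 5.93) overlapped. Lgmn (53.2 at 6m) and Ctss (48.7 at 6m) overlapped in the young adult libraries, and Ctss also overlapped there with Ctsa (38.6). At 24m Ctss, with 64.7 to 110.6 per kilobase, stood above Lgmn, with 51.8 to 61.2. Without the division by length the order of both pairs turned: Ctsb (415.7 to 462.1 CPM) lay above Cstb (130.7 to 141.0 CPM) at 6m, and Lgmn (168.0 to 198.2 CPM) above Ctss (88.4 to 151.1 CPM) at 24m. The means of other pairs turned as well. Cstb (136.3 CPM) lay below Lgmn (172.4 CPM) at 6m, and Ctss (110.9 CPM) below Ctsa (146.6 CPM) at 24m. Per kilobase, Ctsz and Ctsl overlapped at both ages. Lyz2 was the lowest at both ages, at 4.39 ± 0.88 and 15.2 ± 2.85, without overlap with Ctsl above it.

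Because microglia are the cells best known for these mRNAs, the level of a list of microglial markers is given beside them. Of 18 markers in the table, 13 were tested and 2 were changed, both higher at 24m, where 10.3% of all tested genes were changed and higher: Tmem119 (log2FC 1.03, edgeR adjusted p = 0.0165) and Tyrobp (log2FC 0.68, edgeR adjusted p = 0.00535). The call of Tmem119 was lost in 4 of 16 alternatives, both DESeq2 fits and the fits without the young adult or the aged replicate 3, and that of Tyrobp without the young adult replicate 2 (log2FC 0.57). C1qa (0.47, and 0.33 without the aged replicate 1) and C1qc (0.50) passed the adjusted p only, the median log2FC of the list was 0.34, and the homeostatic marker Selplg (-0.19) did not pass. No marker was at 0 in all libraries, but Cx3cr1 had only 0 to 3 counts per library. Summed over the list, the markers had 920.7 to 1000.7 CPM at 6m and 1111.4 to 1422.1 CPM at 24m, without overlap and with the aged replicate 1 the highest. The other 3 aged libraries ended at 1229.8 CPM. The summed oligodendrocyte markers (2070.4 to 2633.3 CPM at 6m, 2873.3 to 3726.4 CPM at 24m) were also higher at 24m without overlap. So were the neuronal markers (2786.4 to 3010.7 CPM at 6m, 3382.6 to 3705.9 CPM at 24m). The sums of the astrocyte, endothelial, choroid plexus and red blood cell lists overlapped between the ages. The part of any of these lists in the differences of the 10 genes was not tested.

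Per 100 CPM of the summed microglial markers, Lyz2 had 1.07, 1.3, 1.62 and 1.42 CPM at 6m and 4.07, 3.93, 3.12 and 3.72 CPM at 24m. On this scale too, Lyz2 did not overlap between the ages and was higher at 24m. Ctss had 6.15 to 7.62 at 6m and 6.97 to 13.3 at 24m, and Ctsb 41.5 to 47.7 and 36.7 to 55.9, so that both overlapped once set against the markers. In both genes the overlap came from the aged replicate 1 (6.97 for Ctss, 36.7 for Ctsb), and the other aged libraries lay above every young adult library. Ctsd (41.7 to 52.2 at 6m, 49.4 to 54.7 at 24m), Ctsl, Ctsz and Ctsa overlapped as well. Lgmn (17.0 to 20.1 at 6m, 13.9 to 15.2 at 24m), Cst3 (538.9 to 565.5 and 378.5 to 417.6) and Cstb (13.1 to 15.1 and 8.68 to 11.2) were lower at 24m without overlap. In the aged replicate 1, whose Cst3 CPM was high, the Cst3 value per 100 CPM of the markers was 400.6, inside the range of the other aged libraries. The marker sum was itself higher at 24m, so a gene with similar CPM at both ages is lower at 24m on this scale. In CPM, Lgmn (log2FC 0.04), Cst3 (-0.13) and Cstb (-0.18) did not pass the test. These ratios are a description with no test, and a list of other markers would give other ratios.

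**Figure D3:**
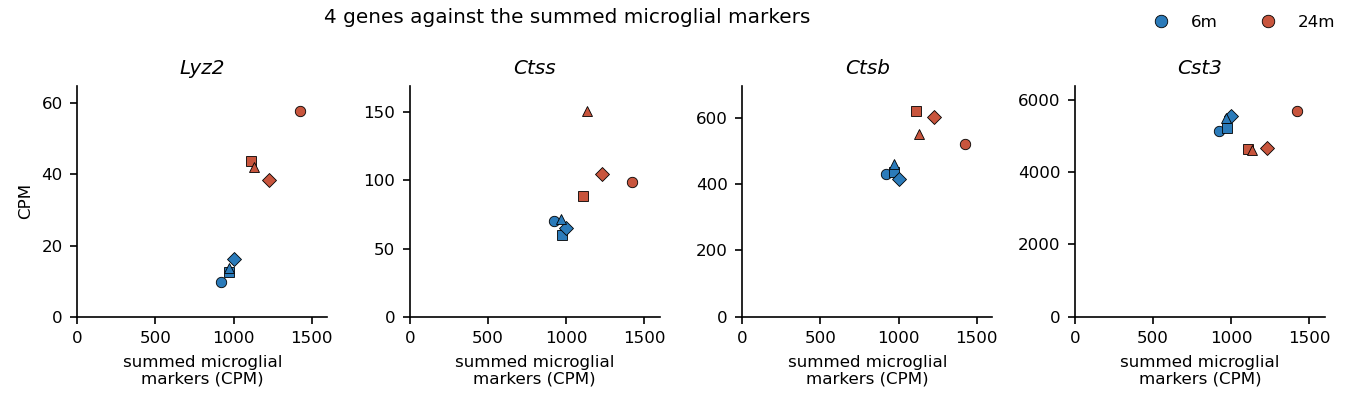
CPM of Lyz2, Ctss, Ctsb and Cst3 in each library (vertical axes from 0) against the summed CPM of the microglial markers (horizontal axis from 0). Blue points are 6m and red points 24m, with the marker showing the replicate number. The aged libraries lie to the right, at 1111.4 to 1422.1 against 920.7 to 1000.7 CPM, and Lyz2 separates the ages most on the vertical axis.

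Lyz2 is also expressed by macrophages and monocytes outside the brain tissue proper, so markers of border macrophages and monocytes were looked at. Of 11 listed markers, Ccr2 and Lyve1 were at 0 in all 8 libraries, and Mrc1 had 1 count in all. The summed list had 19.9 to 32.6 CPM at 6m and 8.32 to 47.3 CPM at 24m, of which the highest value again belonged to the aged replicate 1, and it overlapped between the ages. Ly6c2, the only tested marker of the list, was lower at 24m (log2FC -1.51, edgeR adjusted p = 0.0127). It had few counts, 6 to 11 per young adult library and 3 to 5 per aged library, and its mean of 5.88 was just over the minimum for testing. Ly6c1, an endothelial marker on the same chromosome, was also lower at 24m (log2FC -0.58, edgeR adjusted p = 0.015). Whether reads of Ly6c2 and Ly6c1 can be told apart was not checked. Without the aged replicate 1, the log2FC of Lyz2 was 1.66 (edgeR adjusted p = 1.28e-05), and over all single libraries left out it ran from 1.64 to 1.89.

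Promoter windows, from 250 bases before to 50 after an annotated start, were taken from RefSeq on GRCm38.p6 and matched 8 of the 10 genes in 10 windows; Ctsb and Cstb had none. The letters of the E-box CACGTG, a palindrome bound by the lysosomal regulator TFEB among many other factors, were in the windows of Ctsa, Ctsd, Ctsl and Lgmn and in 7.15% of all 32851 windows. The longer TCACGTGA, which contains it, was in those of Ctsa and Ctsd and in 0.974% of all windows. GAGGAAGT, a sequence bound by the macrophage factor PU.1 and searched on both strands, was in that of Ctss and in 3.20% of all. The stretches are shown to let the motif letters, in capitals, be set against the behaviour of each gene with age.
Ctsd (chr7:142387908-142387937, minus strand): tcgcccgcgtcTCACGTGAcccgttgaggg
Ctsa (chr2:164833749-164833778, plus strand): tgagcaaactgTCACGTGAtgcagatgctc
Ctsl (chr13:64370739-64370768, minus strand): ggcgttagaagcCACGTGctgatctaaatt
Lgmn (chr12:102439124-102439153, minus strand): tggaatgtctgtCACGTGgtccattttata
Ctss (chr3:95526773-95526802, plus strand): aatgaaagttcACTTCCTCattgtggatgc
The motif began 99 bases before the start in Ctsd, 13 in Ctsa, 236 in Ctsl, 49 in Lgmn and 2 in Ctss, where it reads on the reverse strand. For Ctsa and Lgmn it was in 1 of 2 windows. Genes with the E-box letters included Ctsd, with a log2FC of 0.46, and Lgmn and Ctsa, with 0.04 and 0.03. The window of Ctsd held 33 CpG dinucleotides, those of Ctss and Lyz2 held 5 and 1, the other 7 windows held 6 to 18, and the median of all windows was 7. A match in these letters is a description of the window and shows no binding.

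Of 8 other cathepsins, 3 were tested. Ctsh, an aminopeptidase, had 9.85, 10.8, 17.4 and 15.1 CPM at 6m and 35.1, 22.9, 21.8 and 22.2 CPM at 24m, without overlap, and was changed (log2FC 0.88, SE 0.283, edgeR adjusted p = 0.0282). This call did not hold in 5 of 16 alternatives, namely both fits with DESeq2 (on the raw and on the quantile-normalized counts) and the fits without the young adult replicate 1, without the young adult replicate 2 or without the aged replicate 1, with an adjusted p of up to 0.13 from DESeq2. Ctsf, a cysteine protease, had 99.5 to 124.3 CPM at 6m and 94.7 to 138.7 CPM at 24m (log2FC -0.02, edgeR adjusted p = 0.936). Ctso had 28 of its 42 aged counts in the aged replicate 4 and did not pass (log2FC 0.90, edgeR adjusted p = 0.227).

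Of 11 other cystatins and lysozymes in the table, 8 had no count in any library and only Cst6 was tested. Cst6, cystatin E/M, an inhibitor of legumain and cathepsins, had 46.8, 32.5, 34.8 and 31.4 CPM at 6m and 24.4, 20.8, 20.5 and 22.2 CPM at 24m. The ages did not overlap, and Cst6 was changed and lower (log2FC -0.74, SE 0.218, edgeR adjusted p = 0.0167). The call was lost without the young adult replicate 1, which had the highest value of 46.8 CPM (log2FC -0.58, edgeR adjusted p = 0.107), and with DESeq2 on raw counts (adjusted p = 0.0737). Cst7, cystatin F, a cystatin of immune cells that was singled out after its values were seen, had 0 counts in every young adult library and 2, 3, 2 and 8 counts in the aged libraries. Set against a limit of 3 counts over the young adult group, its aged counts, put on the same library size, were 4.0-fold higher. The limit covers counting error at 6m only, and the error of the aged counts is not included.

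Changed genes were about as frequent among the other lysosomal hydrolases and activator proteins as among all tested genes, of which 14.5% were changed. Of 34 tested hydrolases and activator proteins, 3 were changed and higher, 2 were changed and lower and 29 were not changed, with a median log2FC of 0.05. The higher genes included Gm2a, the activator of ganglioside breakdown (log2FC 1.00, edgeR adjusted p = 0.000563), and Arsb, a sulfatase (log2FC 1.33, edgeR adjusted p = 0.0122). Among the lower genes, Dpp7, a dipeptidyl peptidase, had a log2FC of -0.64 (edgeR adjusted p = 0.0318). Gm2a was changed in all 16 alternatives. The call of Arsb was lost without the young adult replicate 3, without the aged replicate 2 and with DESeq2 on quantile-normalized counts. That of Dpp7 was lost in 8 of 16 alternatives, which were both DESeq2 fits, library sizes alone, and the fits without the young adult replicates 1 or 4 or the aged replicates 2, 3 or 4.

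Among 21 tested genes of enzyme sorting and lysosomal regulation, 1 was changed, where 14.5% of all tested genes were changed. The median log2FC of the list was 0.03. The changed gene was Gga3, an adaptor that carries mannose 6-phosphate receptors from the Golgi (log2FC 0.79, edgeR adjusted p = 0.0378), and its ages overlapped. The call was lost in 8 of 16 alternatives, which were both DESeq2 fits and the fits without the young adult replicates 2, 3 or 4 or the aged replicates 1, 2 or 3. The receptor M6pr (log2FC 0.26, edgeR adjusted p = 0.311) and the transcription factor Tfeb (log2FC -0.08) did not pass.

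**Figure D4:**
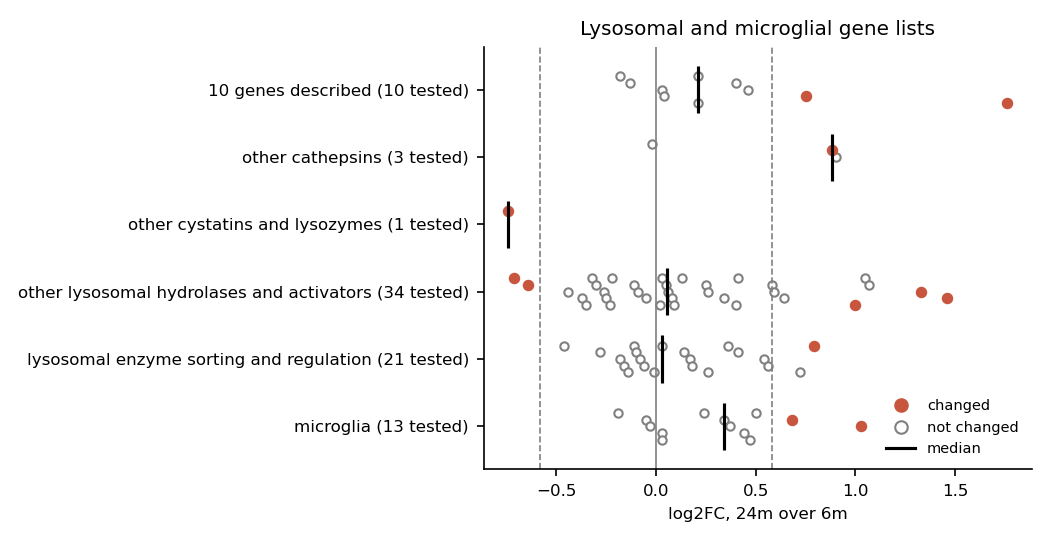
Log2FC, 24m over 6m, of each tested gene in the 10 genes described and in 5 other lists (1 row per list). Red points are changed genes, open points are genes that were not changed, black bars are medians and dashed lines mark the fold change minimum. The medians of hydrolases (0.05) and of sorting genes (0.03) lie near 0, and those of the 10 genes (0.21) and the microglial markers (0.34) lie above it.

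Genes with the most similar pattern over the 8 libraries were sought for the 3 most counted of the 10, among 2725 genes with a mean count of at least 50, by Pearson r of log2 CPM. The libraries of both ages enter together, so r includes any difference with age, and it is a description. For Cst3 the highest values were those of Ift27 (0.965), Rplp2-ps1 (0.963) and Ndufb11 (0.959). For Ctsd they were Gm49369 (0.996), Atcay (0.984) and Gm49510 (0.977), and for Ctsb Wbp2 (0.984), Cntnap1 (0.979) and Thy1 (0.977). The first neighbour of Ctsd was thus the gene whose reads could not be told apart from it.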

How the data were processed

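The authors extracted RNA from brain hemispheres, sequenced it by ONT direct RNA sequencing, mapped reads to GRCm39 with minimap2 (2.24 in the submitters' processing notes) and summarised them by gene with featureCounts. The labels name a poly(A) cDNA kit instead, and the methods were followed. Strand, overlap and multi-mapping settings are not given in the sources used here. The deposited values are raw counts. The low-count filter, quantile and row-wise median normalization of the methods came later, and the last was not repeated.

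Of 22430 genes, 22281 matched GENCODE vM39 by identifier and 149 did not. The latter stayed in library sizes and tests. In R 4.3.3, genes whose mean count exceeded 5 (9375) entered a test with edgeR 4.0.16 (quasi-likelihood, TMM, age only, all 8 libraries) with Benjamini-Hochberg adjustment over all of them. Changed means an adjusted p of at most 0.05 and a log2FC of at least 0.58 in size. SE and 95% intervals come from that fit, and log2 CPM used a prior count of 2. Totals per library, 573152 to 1255424, set the precision, and intervals on counts cover counting error only. Copies were searched with BLAST+ 2.17.0. The tests were checked on simulated counts.

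The members and gene lists were chosen with earlier results of these data known. Text names all 10 members, every tested gene of the other cathepsin, cystatin and lysozyme lists, and at most 4 changed genes per direction of the other lists. Some genes that this rule selects are named in no result, as they are not reported here. M6pr, Tfeb, Cst7, Ly6c1 and the overlapping genes stand outside this rule. Alternatives were DESeq2 1.42.0 on raw and on quantile-normalized counts, RLE factors, library sizes alone, no filter or more than 5 counts in every library, mitochondrially encoded genes left out, an adjusted p alone, a replicate block and each library left out. For the other lists these were added after seeing the data. Whether replicate numbers pair the libraries was checked by the correlation of their deviations from the age means.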

Additional observations from a re-analysis of the deposited data

Results flagged for a closer look

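Among the 4 libraries of an age, the values of the 10 genes, their ratios and the library totals were searched for 1 far from the rest, by its gap to the nearest over the whole range (Dixon's criterion at 95%). Of 60 groups of 4 libraries, 5 had one, where chance gives about 3, and several of them share the counts of Cst3. The aged replicate 1 stood apart in Cst3, at 5697.6 CPM, in the sum of Cst3 and Cstb, at 5821.1 CPM, and in the sum of the 10 genes, at 7880.3 CPM. The young adult replicate 1 was apart for Lgmn per 100 CPM of summed microglial markers, at 20.1. The young adult replicate 2 was apart in total counts, at 573152, the lowest depth of the 8 libraries.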

How the results depend on the processing

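Of the 10 genes, Ctss and Lyz2 were changed in every alternative except without the aged replicate 4 (1 gene, Lyz2) and by the adjusted p alone (4 genes). Leaving out single libraries gave 1 to 2 changed genes and 4 to 5 genes past the adjusted p, where Cst3 joined without the aged replicate 1. Ctsb, Ctsd, Ctss and Lyz2 passed the adjusted p in all 16 alternatives. The log2FC turned sign for Ctsa without the young adult replicate 3 (-0.01) and without the aged replicate 1 (-0.03; range without single libraries -0.03 to 0.12), for Lgmn without the aged replicate 1 (-0.01), and for Cst3 with DESeq2 on quantile-normalized counts (0.06). For Ctsf it turned positive with library sizes alone (0.08), with more than 5 counts in every library (0.02), and without the young adult replicate 1 (0.06) or the aged replicates 2 (0.02), 3 (0.04) or 4 (0.02), with -0.13 to 0.06 without single libraries. The cause was not tested. Changed genes over the whole table numbered 1359, 834 with DESeq2 on raw counts, 819 with DESeq2 on quantile-normalized counts, and 989 to 1594 without single libraries. In the 4 other lysosomal lists together, 8 genes were changed, 4 with either DESeq2 fit and 5 to 8 without single libraries (5 without the young adult replicate 1 and 5 without the aged replicate 2). With library sizes alone the median log2FC of all genes was 0.102, which adds to every log2FC there.

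No pairing of the libraries by replicate number was seen, with correlations of 0.065, -0.01, 0.005 and -0.16 between same-numbered libraries. Low correlations do not exclude a pairing, as counting error in single genes lowers them. With the replicate block, 1308 genes of the table and 2 of the 10 were changed. Of the 10 genes, Lyz2 had the fewest counts, 7 to 13 per young adult library, and the largest SE, 0.241.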

Other observations

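Cathepsins and markers under the minimum for testing are given as counts. Ctsc had 8 counts in the young adult libraries together and 12 in the aged libraries, and Ctsk, known from osteoclasts, 24 and 16. Ctsw had 0 counts at 6m and 4 at 24m, and Ctsg 0 and 1. Among the markers of border macrophages and monocytes, Plac8 had 10 counts in the aged replicate 1, 1 in the aged replicate 3 and 0 in the others. Psap, the precursor of the saposins, was the most counted of the hydrolases and activators. It averaged 1122.5 CPM in the young adult and 1419.5 CPM in the aged libraries (SD 57.3 and 215.7) and passed the adjusted p but not the fold change minimum (log2FC 0.34, edgeR adjusted p = 0.0161). Gaa, acid alpha-glucosidase, passed it in the other direction (log2FC -0.26, edgeR adjusted p = 0.0356), with all aged libraries below all young adult ones.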
